A study of Homo sapiens with 2 samples.

Results

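The genes described here are the integrin and laminin chains, chosen by name: all 18 integrin alpha chains, 8 integrin beta chains and 12 laminin chains (5 alpha, 4 beta and 3 gamma), 38 of the 28303 genes in the deposited tables. They were measured in cells labelled HGC27, a human cell line established from gastric cancer, by sequencing of poly(A)-selected RNA. The control library came from cells transfected with the plasmid pcDNA3.1-control, and the LINC01133 library from cells given pcDNA3.1-linc01133, which carries the long non-coding RNA LINC01133. Turbofect carried the plasmids into both sets of cells, which were collected after 48 h. Each group held 1 library, so no difference below has a replicate check, no test between the groups could be made, and every ratio compares these libraries only. A transient transfection reaches a share of the cells, and that share was not analysed here.

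Integrins are receptors that hold cells to the extracellular matrix. Each is a pair of 1 alpha and 1 beta chain: the large extracellular parts bind the ligand, and the short tails inside the cell bind adaptors such as talin and kindlin that link the receptor to actin. Laminins are secreted trimers of 1 alpha, 1 beta and 1 gamma chain, assembled before secretion, and they are a main part of the basement membrane on which epithelial cells of the stomach rest. A chain can reach the surface or the matrix only with its partners, so the levels of the chains of a class are of interest relative to each other.

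The values are FPKM, counted fragments per exon length and library size, so levels can be compared between chains. The libraries held 15666629 (control) and 16302581 (LINC01133) counted fragments. LINC01133 itself had an FPKM of 0.0809 and 1.44, with 4 and 74 fragments. Where 2 values follow a gene below, the control comes first. Of the markers of other cell types, all 10 fibroblast genes passed the filter used throughout, an FPKM of 1 as the mean of both libraries, with a summed FPKM of 638 and 682; 1 of them, POSTN, is also on a list of integrin ligands below. Without POSTN the sum was 604 and 584, and 5 of the 10 were lower with LINC01133; FAP passed through that library alone (0.465 and 1.80). The 10 epithelial markers with values summed to 2.51 and 2.13 and 2 of them were at 0 in both libraries (KRT18 and KRT5). EPCAM, a defining epithelial surface protein, had 0.0253 and 0.292, and CDH1, encoding E-cadherin, 0.0207 and 0.00993. MUC1 had 1.41 and 1.13 and was the only epithelial marker past the filter, and CLDN4 had 0.638 and 0.496. Whether the cells are the labelled line was not tested. The 6 blood and platelet markers with values summed to 4.74 and 3.82 (PF4 at 0), the 5 endothelial markers to 0.0925 and 0.139 (KDR and CDH5 at 0) and the 4 muscle markers to 5.39 and 3.93. The part of these levels in the results was not tested.

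The alpha and beta chains can be recognised in the coding sequence by their tail motifs. Just inside the membrane the alpha chains carry a motif that begins with glycine and 2 phenylalanines and usually ends in lysine and arginine, and it helps to keep the receptor in its resting state. It was found in the coding transcript of all 18 alpha chains, and in 14 of them it ended in lysine and arginine. Around it 48 bases are shown for the 3 alpha chains past the filter that were most above the control and for 2 that were below it. The capitals mark the 15 bases of the motif. In all 18 chains the window ran over an exon junction, so the coordinates (GRCh38, GENCODE 29) include an intron: between exons 29 and 30 of the transcript in ITGAV and ITGA5, 27 and 28 in ITGA4, and 24 and 25 in ITGA6 and ITGA3.
ITGAV, chr2:186676918-186677226 (plus strand): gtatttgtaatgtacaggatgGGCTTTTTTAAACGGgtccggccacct
ITGA4, chr2:181534918-181535461 (plus strand): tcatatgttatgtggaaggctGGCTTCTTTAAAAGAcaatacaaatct
ITGA6, chr2:172498083-172501801 (plus strand): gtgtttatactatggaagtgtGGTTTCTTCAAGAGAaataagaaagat
ITGA5, chr12:54396347-54397382 (minus strand): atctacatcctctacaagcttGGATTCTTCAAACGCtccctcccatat
ITGA3, chr17:50087852-50088254 (plus strand): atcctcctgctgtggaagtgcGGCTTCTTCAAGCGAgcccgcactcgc

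In these bases the same motif was written with different codons: the 14 chains whose motif ended in lysine and arginine used 13 different stretches of 15 bases. The motif held 5 G or C bases in ITGA4, 6 in ITGAV and ITGA6, 7 in ITGA5 and 8 in ITGA3. For the beta chains, the first tail motif of asparagine, proline, any residue and tyrosine, which binds talin, was found in 5 chains and is shown in those past the filter, with the 12 bases of the motif in capitals. The windows lie over exons 15 and 16 in ITGB1 and 14 and 15 in ITGB5.
ITGB1, chr10:32901606-32908382 (minus strand): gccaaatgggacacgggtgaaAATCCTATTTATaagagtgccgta
ITGB5, chr3:124763689-124764405 (minus strand): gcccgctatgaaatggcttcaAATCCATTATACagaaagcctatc

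Of the 38 chains, 16 had a mean FPKM of at least 1, beside 11945 of all 28303 genes, which is a similar share. They were 9 of 26 integrin chains and 7 of 12 laminin chains. Each of the 16 was above 1 in both libraries, so none passed through 1 library alone. The chains with the highest control levels were ITGA5 at 35.4, LAMC1 at 29.3, ITGB1 at 28.4, LAMB1 at 24.5 and LAMA5 at 22.6. Together these are an integrin pair, the classical fibronectin receptor, and a complete laminin trimer. In the LINC01133 library ITGB1 was first at 57.9, ahead of LAMC1 at 33.3, LAMB1 at 28.8, ITGA5 at 23.6 and LAMA5 at 17.3. In RNA from bulk cells, fewer cells with a transcript and less of it per cell cannot be told apart.

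**Figure D1:**
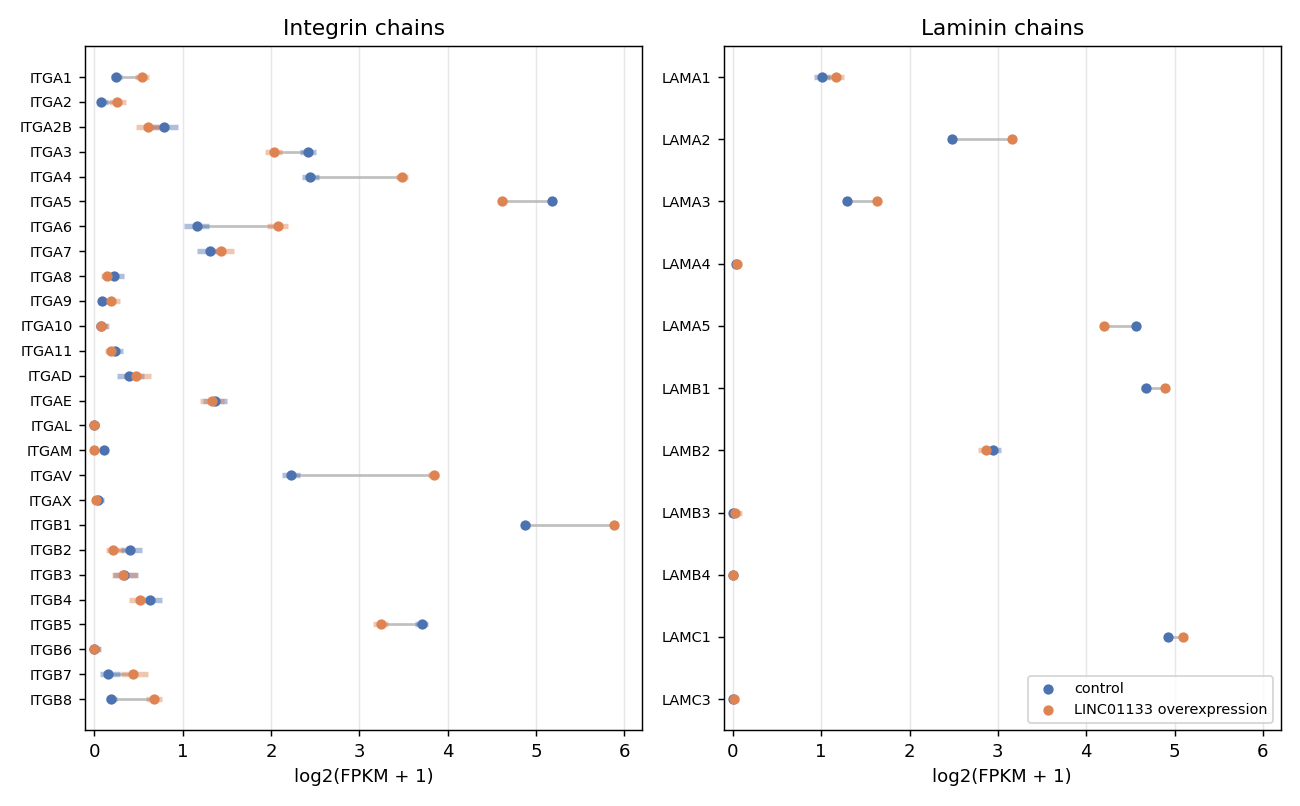
Level of the chains as log2(FPKM + 1) in the control (blue) and overexpression (orange) library, 1 library each; shaded bars are 95% counting intervals, left out for ITGAM in the control and for LAMA2, LAMA3 and LAMA5. ITGAV, ITGA4, ITGA6 and ITGB1 lie to the right of their control points and ITGA5, ITGA3, ITGB5 and LAMA5 to the left.

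Counts of higher and lower genes use a 2-fold limit on FPKM + 1, an absolute log2 ratio of 1. Past this limit 3 of the 16 measured chains, ITGAV, ITGA4 and ITGB1, were higher with LINC01133, and 0 were lower. Over all 11945 genes past the filter 11.9% were higher and 0.444% lower, so the 3 of 16 chains (18.8%) lie near the background. When the libraries were scaled by the median of ratios, the trimmed mean of M values or the upper quartile, ITGAV alone stayed past the limit. These ratios also moved with GC content, and with that trend and the one on length subtracted 0 chains passed the limit, as described further on. The median log2 ratio was 0.13 over 9 integrin chains and 0.18 over 7 laminin chains, against 0.10 over all genes. These medians turned negative by the upper quartile, at -0.12 and -0.20, where the median of all genes past the filter under that scaling was -0.25. The 9 integrin chains spread from -0.56 to 1.62, while the 7 laminin chains lay between -0.37 and 0.69.

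ITGAV, which pairs with several beta chains to bind vitronectin, fibronectin and latent TGF-beta, differed most of the chains past the filter. Its FPKM of 3.68 (95% counting interval 3.35 to 4.02) rested on 473 control fragments, and its FPKM of 13.4 (12.8 to 14.0) with LINC01133 on 1791. That is a ratio of 3.64 (3.29 to 4.04), or 1.62 as a log2 ratio of FPKM + 1. It was the only chain past the filter whose log2 ratio stayed above 1 under every scaling tried, from 1.23 to 1.62.

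ITGA4, a receptor chain for VCAM1 and fibronectin best known from leukocytes, had 4.45 (4.09 to 4.84) and 10.2 (9.66 to 10.8), a ratio of 2.29 (2.07 to 2.54). ITGA6, a laminin receptor chain, had 1.23 (1.03 to 1.47) and 3.22 (2.89 to 3.58), a ratio of 2.62 (2.13 to 3.23). With a log2 ratio of 0.92 ITGA6 fell just outside the limit, although its ratio of FPKM was larger than that of ITGA4, because adding 1 weighs more on a low value. With a pseudocount of 0.1 its log2 ratio was 1.32.

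ITGA5, the alpha chain of the fibronectin receptor, was lower in the LINC01133 library. It had 35.4 (34.3 to 36.4) and 23.6 (22.7 to 24.5), from 4197 and 2915 fragments, and was 1.498-fold lower (1.43 to 1.57). ITGA3, another laminin receptor chain, had 4.37 (4.05 to 4.71) and 3.09 (2.82 to 3.38) and was 1.41-fold lower (1.26 to 1.59). Neither reached 2-fold. The intervals of ITGA7, a laminin receptor chain of muscle (1.47 and 1.71), and of ITGAE, the partner of ITGB7 that binds E-cadherin (1.58 and 1.52), overlapped between the libraries.

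The order of the alpha chains therefore differed between the libraries below ITGA5, which was first in both. In the control ITGA4 and ITGA3 came next, with overlapping intervals, and ITGAV lay just under them. With LINC01133, ITGAV came next and then ITGA4, apart by more than their intervals, and ITGA6 and ITGA3 followed with overlapping intervals. ITGAE and ITGA7 were not separated from each other in either library.

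ITGB1, the beta chain shared by most alpha chains, was 2.04-fold higher (1.94 to 2.13), at 28.4 (27.4 to 29.5) and 57.9 (56.4 to 59.4), from 2678 and 5673 fragments. Its log2 ratio of 1.0004 lay just inside the limit. ITGB5, a partner of ITGAV only, had 12.1 (11.4 to 12.8) and 8.47 (7.92 to 9.04) and was 1.42-fold lower (1.31 to 1.55). The 6 other beta chains had a mean FPKM under 1. ITGB8, another partner of ITGAV that binds latent TGF-beta, was among these low chains, with 0.139 (0.0957 to 0.195) and 0.599 (0.506 to 0.704), from 33 and 148 fragments. Its ratio of 4.31 (2.94 to 6.49), at a transcript GC content of 37.8%, was the largest of all chains with at least 1 fragment in both libraries.

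The chain make-up of the integrin classes can be read within each library, free of the scaling between them. It is not free of the trend on GC content described further on, and no share or sum was formed with that trend subtracted. ITGA5 held 65.5% of the summed FPKM of the alpha chains in the control and 40.2% in the LINC01133 library, while ITGAV held 6.81% and 22.8% and ITGA4 8.24% and 17.4%. ITGB1 held 67.9% and 84.9% of the beta chains, and ITGB5 28.8% and 12.4%. The summed FPKM of the alpha chains was 53.99 and 58.8 and that of the beta chains 41.9 and 68.2. Thus, as deposited, the sum of the alpha chains was above that of the beta chains in the control and below it in the LINC01133 library.

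For each pair of chains the quotient of their levels was formed within a library and then compared between libraries. ITGAV stood at 0.104 of ITGA5 in the control and at 0.567 in the LINC01133 library, a 5.45-fold difference with a counting interval of 4.87 to 6.11. Against its partner ITGB5 it stood at 0.305 and 1.58, a difference of 5.18-fold (4.53 to 5.93), and the difference of their log2 ratios was 2.08, or 0.85 with the trends subtracted. ITGAV was below ITGB5 in the control and above it in the LINC01133 library. ITGA5 stood at 1.24 and 0.408 of its partner ITGB1, and ITGA6 at 0.282 and 1.04 of the other laminin receptor chain ITGA3.

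**Figure D2:**
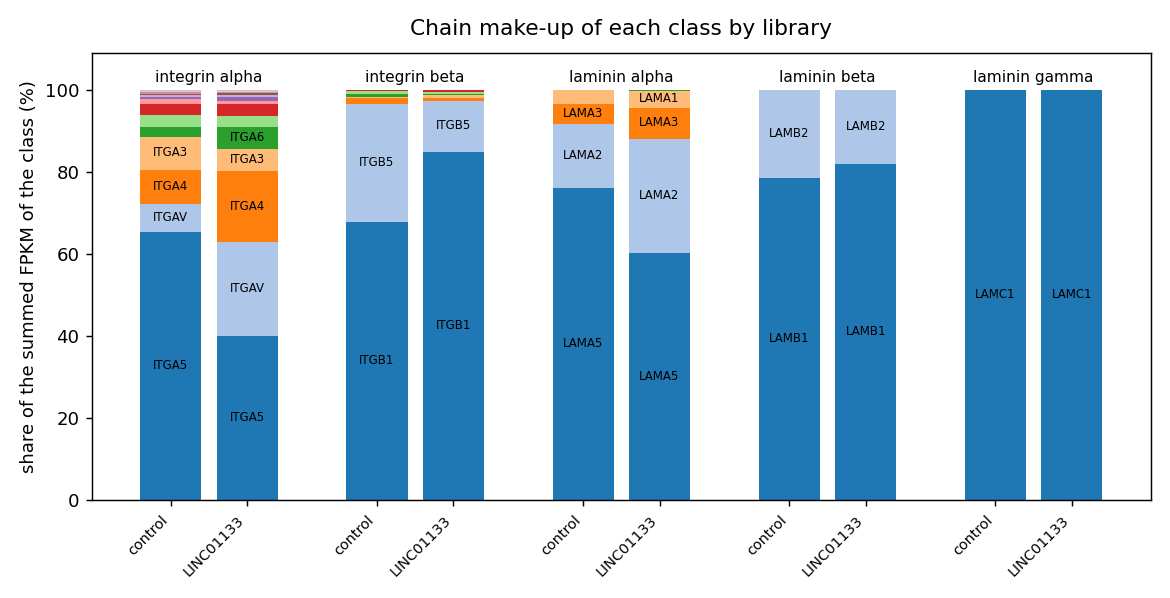
Share of the summed FPKM of each class held by its chains (percent, stacked bars), in the control and the LINC01133 library, 1 library each. ITGA5 holds 65.5% and 40.2% of the alpha chains and LAMA5 76.2% and 60.4% of the laminin alpha chains, while LAMC1 holds over 99% of the gamma chains in both.

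Of the 7 measured laminin chains 0 lay past 2-fold on either side, where 11.9% of all genes were higher and 0.444% lower, so a count of 0 is near the background. No test of the laminin against the integrin chains was made. LAMC1, the gamma chain of most laminins, had 29.3 (28.4 to 30.2) and 33.3 (32.3 to 34.3), a ratio of 1.14 (1.09 to 1.19). LAMB1, its usual beta partner, had 24.5 (23.7 to 25.4) and 28.8 (27.9 to 29.7), a ratio of 1.17 (1.12 to 1.23). Both ratios are relative to the scaling: by the upper quartile the log2 ratios turned from 0.18 and 0.22 to -0.23 and -0.18, and that of LAMC1 also turned by the other scalings. By the upper quartile the median of all genes past the filter under that scaling was -0.25. Within a library LAMB1 stood at 0.838 of LAMC1 in the control and 0.865 in the LINC01133 library, a 1.03-fold difference whose interval of 0.968 to 1.10 holds 1. LAMB2, the beta chain of laminins at nerve, muscle and kidney, had 6.70 (6.22 to 7.21) and 6.32 (5.86 to 6.80), with overlapping intervals.

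Of the laminin alpha chains, which carry the binding sites for integrins, LAMA5 was first in both libraries. LAMA5 had 22.6 and 17.3, from about 5069 and 4038 fragments, 1.31-fold lower in the LINC01133 library. LAMA2, the alpha chain of muscle and nerve laminin, had 4.57 and 7.97, from about 742 and 1346 fragments, a ratio of 1.74. LAMA3, a chain of epithelial laminin, had 1.45 and 2.11, a ratio of 1.46. These 3 genes carry no interval, because their values were not whole numbers of fragments by the exon lengths used. LAMA1, the chain of early embryonic laminin, had 1.01 (0.888 to 1.14) and 1.25 (1.12 to 1.39), a ratio of 1.24 (1.05 to 1.46), with 10.3% of its exon bases opposite the antisense gene AP002409.1. LAMA2 stood at 0.202 and 0.460 of LAMA5, a 2.28-fold difference, and the summed FPKM of the alpha chains was 29.7 and 28.7.

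The 22 chains under the filter had a mean FPKM of at most 0.627, and 3 of them, ITGAL, ITGB6 and LAMB4, were at 0 in both libraries. ITGAL is a leukocyte chain, ITGB6 an epithelial one. A count of 0 allows up to 3 fragments, an FPKM of 0.0296 and 0.0284 for ITGAL, 0.0409 and 0.0393 for ITGB6 and 0.0273 and 0.0262 for LAMB4. ITGB4, a laminin receptor chain of hemidesmosomes, had 0.548 (0.416 to 0.708) and 0.426 (0.313 to 0.567), with overlapping intervals. LAMB3, a chain of epithelial laminin, had 0 fragments in 1 library and 1 in the other. LAMC3 had 0 and 1 fragments and LAMA4 4 and 6.

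Among the low integrin chains, the collagen receptors ITGA1 and ITGA2 were higher in the LINC01133 library, with ratios of 2.39 (1.74 to 3.34), from 55 and 137 fragments, and 3.43 (1.44 to 9.40), from 7 and 25. Their transcripts had low GC contents of 38.8% and 40.2%. ITGB7, with 8 and 26 fragments, had a ratio of 3.12 (1.37 to 7.98), but 42.1% of its exon bases lie opposite the exons of ZNF740. ITGB2, the beta chain of leukocytes, was lower, with 35 and 18 fragments and a ratio of 0.494 (0.264 to 0.897). Its alpha partners were near 0: ITGAM had about 7 and 0 fragments and ITGAX 3 and 2, while ITGAD had 22 and 28. The platelet chain ITGA2B had 0.724 and 0.530, and ITGB3 0.261 and 0.251, with 51.6% of its exon bases shared with another gene on the same strand. The intervals of these values overlapped between the libraries, as did those of ITGA8 (20 and 13 fragments), ITGA9 (8 and 19), ITGA10 (5 and 6) and ITGA11 (30 and 25).

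**Figure D3:**
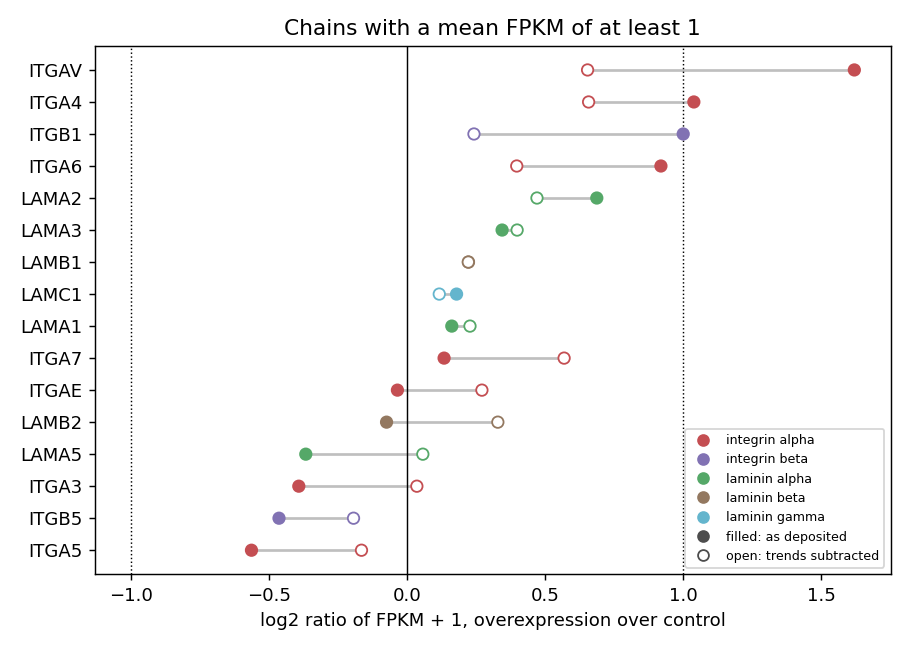
log2 ratio of FPKM + 1, overexpression over control, for the 16 chains with a mean FPKM of at least 1, as deposited (filled) and with the trends on GC content and length subtracted (open); dotted lines mark 2-fold. ITGAV moves from 1.62 to 0.65 and ITGB1 from 1.0004 to 0.24, and no open point lies past 2-fold.

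The log2 ratio of the chains moved with the base composition of their transcripts, as it did over all genes. The 4 chains past the filter with a GC content under 45% were ITGAV (38.3%), ITGB1 (39.98%), ITGA6 (42.9%) and ITGA4 (44.1%), and these had the 4 highest log2 ratios. The chains with GC contents over 54% were ITGB5 (54.3%), ITGAE (54.8%), ITGA5 (58.7%), ITGA7 (60.2%), LAMB2 (60.3%), ITGA3 (60.9%) and LAMA5 (66.4%), and all of them but ITGA7 had a log2 ratio below 0. As a description, the Spearman correlation of log2 ratio and GC content was -0.885 over the 16 chains and -0.800 over 11913 genes; the points share both libraries. Over genes in the GC range of ITGAV, 26.9 to 38.7%, the median log2 ratio was 1.14 and 60.6% were at least 2-fold higher. In the range of ITGB1 these were 0.85 and 34.3%, and in that of ITGA4 0.39 and 4.45%. Of the chains under the filter that were higher, ITGB8 (37.8%) lay in the range of ITGAV. ITGA1 (38.8%) and ITGA2 (40.2%) lay in that of ITGB1, while ITGB7 had 59.4%. In ITGAV the 3′ UTR had 29.6% GC and the coding part 44.9%, against 55.6% and 58.6% in ITGA5. At the last position of the codons ITGAV had 40.5% GC and ITGA5 67.8%. The 48 bases shown above differ less, with 22 G or C bases in ITGAV and 21 in ITGA5.

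**Figure D4:**
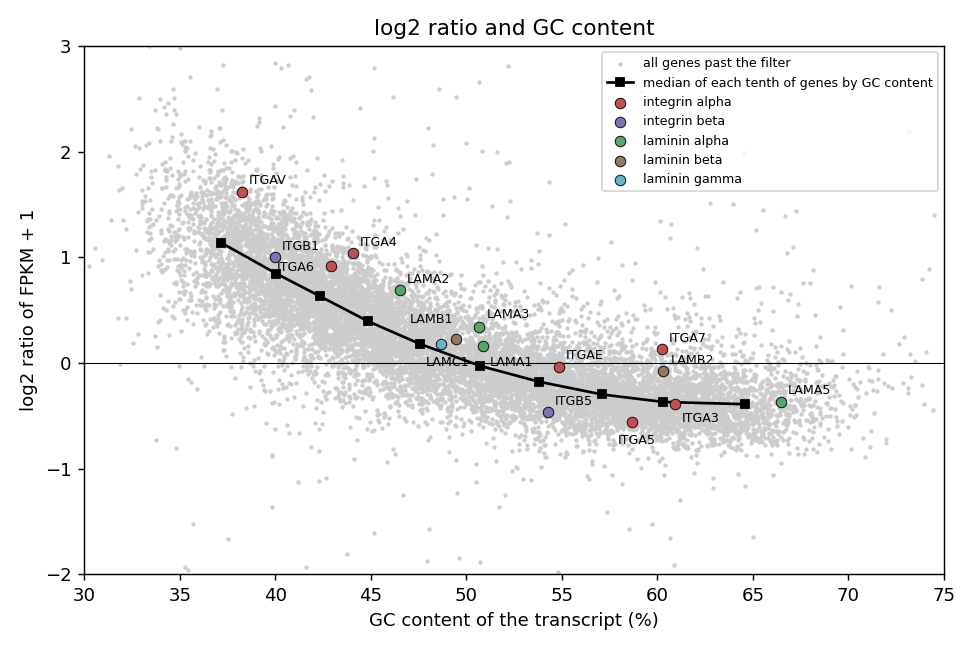
log2 ratio of FPKM + 1 (vertical axis) against the GC content of the transcript in percent (horizontal axis) for all genes past the filter (grey) and the 16 chains (coloured by class); black squares are medians of groups of genes of equal number by GC content, and genes outside the axes are not drawn. ITGAV, ITGB1, ITGA6 and ITGA4 lie at the left and above 0. Once both trends are subtracted, which is not drawn here, 12 of the 16 chains lie above the overall median of 0.10, beside 5956 of 11913 genes.

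With the trends on GC content and transcript length subtracted, 0 of the 16 chains were at least 2-fold higher or lower, against 1.73% and 0.755% of 11913 genes. ITGA4 was then at 0.66, ITGAV at 0.65 and ITGA7 at 0.57, followed by LAMA2 at 0.47, LAMA3 and ITGA6 at 0.40. ITGB1 was at 0.24, while ITGB5 at -0.19 and ITGA5 at -0.17 were the lowest and the only chains below 0. ITGA3, LAMA5, ITGAE and LAMB2 turned from negative to positive. Of these, ITGAE at 0.27 and LAMB2 at 0.33 were above the overall median of 0.10, and ITGA3 at 0.04 and LAMA5 at 0.06 were under it. The median was 0.27 over the integrin chains and 0.23 over the laminin chains, with 0.10 over all genes. The difference between the log2 ratios of ITGAV and ITGA5 went from 2.18 to 0.82, and that between ITGB1 and ITGB5 from 1.46 to 0.44. It went from -1.56 to -0.41 between ITGA5 and ITGB1, from 1.31 to 0.36 between ITGA6 and ITGA3, and from 1.05 to 0.41 between LAMA2 and LAMA5.

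The promoters of LAMB1 and LAMC1 are shown because the levels of these partner chains kept nearly the same quotient in both libraries. Their transcripts were also close in GC content, at 49.5% and 48.65%. Whether the promoters have a part in the quotient was not tested. The promoters are the 300 bases around the start in the RefSeq table for GRCh38.p14, and the capitals mark GGGCGG on either strand, the GC box.
LAMB1, chr7:108003112-108003411 (minus strand): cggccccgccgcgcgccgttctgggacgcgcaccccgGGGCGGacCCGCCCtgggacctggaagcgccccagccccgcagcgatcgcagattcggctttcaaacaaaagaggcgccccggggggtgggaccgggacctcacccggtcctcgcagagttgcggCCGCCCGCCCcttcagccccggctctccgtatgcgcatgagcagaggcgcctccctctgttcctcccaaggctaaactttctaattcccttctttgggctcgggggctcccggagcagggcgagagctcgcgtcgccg
LAMC1, chr1:183023170-183023469 (plus strand): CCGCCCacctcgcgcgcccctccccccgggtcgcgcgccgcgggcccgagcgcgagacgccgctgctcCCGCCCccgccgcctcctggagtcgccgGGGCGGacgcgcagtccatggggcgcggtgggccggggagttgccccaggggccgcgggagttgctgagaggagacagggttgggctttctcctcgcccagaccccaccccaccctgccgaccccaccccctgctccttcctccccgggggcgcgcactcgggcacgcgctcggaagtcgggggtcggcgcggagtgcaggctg

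LAMB1 held 4 matches to GGGCGG, of which 2 overlap, and LAMC1 held 3. Their promoters had GC contents of 71.0% and 79.0%. The RefSeq table had 33 promoters for 26 of the 38 chains. GGGCGG was in 19 of these 33 and in 44.95% of all 35116 promoters of the same length. Searched on both strands, GGAATG, a core bound by TEAD factors, was in 4 of the 33 against 14.0% of all promoters, in ITGB1, ITGA5, LAMA2 and ITGA10. The AP-1 core TGANTCA was in 3 of the 33 against 7.71%. None of these matches shows binding.

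The partners of integrins and laminins were read from 6 lists with 122 of 128 genes found. Among 18 measured focal adhesion adaptors 2 passed the limit upwards and 0 downwards, close to the 11.9% and 0.444% of all genes. The median log2 ratio was -0.15, and 0.05 with the trends subtracted. LIMS1, an adaptor that binds integrin-linked kinase, had an FPKM of 2.09 and 7.29 (log2 ratio 1.42), and FERMT2, a kindlin that binds beta tails, 6.80 and 15.4 (1.07). The paxillin relative TGFB1I1 had 5.36 and 3.16 (-0.61) and zyxin (ZYX), a protein of mature adhesions, 26.3 and 18.4 (-0.49). With both trends subtracted LIMS1 was at 0.75, FERMT2 at 0.49, TGFB1I1 at -0.06 and ZYX at 0.04.

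On the list of genes for integrin activity and traffic 3 of 14 measured genes lay past 2-fold on the higher side and 0 on the lower, beside 11.9% and 0.444% of all genes. The median was -0.19, and -0.15 with the trends subtracted. ITGB3BP had 1.74 and 7.84 (log2 ratio 1.69), and it was the single gene of the 6 lists still past 2-fold with both trends subtracted, at 1.27. Despite its name it is best known as a nuclear coregulator and centromere protein. RASA1, a Ras GTPase-activating protein, had 2.17 and 5.72 (1.08), and KRIT1, a RAP1 effector, 2.03 and 5.24 (1.04); with the trends subtracted they were at 0.64 and 0.13. RAP1B, a small GTPase that activates integrins, had 2.34 and 4.99 (0.84), and its log2 ratio turned to -0.17 with the trends subtracted.

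Of 7 measured tetraspanins, membrane proteins that gather integrins, 0 were at least 2-fold apart, which is near the share of all genes. The median was -0.50. CD151, which binds laminin-binding integrins, had 25.1 and 16.1 (log2 ratio -0.61), CD81 49.9 and 33.1 (-0.58), TSPAN4 16.6 and 11.4 (-0.51) and CD63 203 and 143 (-0.50). With the trends subtracted the median was 0.04. CD151 was then at -0.04, CD81 at -0.01, TSPAN4 at 0.07 and CD63 at -0.09.

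The basement membrane partners of laminin had a median of -0.23 over 8 measured genes, with 0 past 2-fold, again near the share of all genes. With the trends subtracted the median turned to 0.15. COL4A5, a type IV collagen chain, had 3.59 and 6.37 (0.68), and the matrix protein FBLN1 57.1 and 39.5 (-0.52). AGRN, a proteoglycan that binds the laminin coiled coil, had 43.0 and 32.5 (-0.39), and COL18A1 3.002 and 2.27 (-0.29). Without the trends COL4A5 was at 0.76, FBLN1 at -0.12, AGRN at 0.04 and COL18A1 at 0.14. The list of other laminin receptors had 1 of 15 measured genes at least 2-fold higher and 0 lower, beside 11.9% and 0.444% of all genes. Its median was -0.26, which turned to 0.04 with the trends subtracted. The sarcoglycan SGCB had 9.36 and 15.05 (0.63), the syndecan SDC2 20.9 and 30.3 (0.52) and the Lutheran laminin receptor BCAM 7.43 and 5.19 (-0.45). With the trends subtracted SGCB was at -0.19, SDC2 at 0.13 and BCAM at 0.04.

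Among the other integrin ligands 1 of 12 measured genes was at least 2-fold higher, beside 11.9% of all genes, and the median was 0.03, or 0.10 with the trends subtracted. POSTN, a matrix protein bound by integrins of ITGAV, had 33.7 and 98.8 (log2 ratio 1.52, or 0.68 with the trends subtracted). NPNT had 2.22 and 4.05 (0.65, or 0.26), VCAM1, the ligand of ITGA4, 4.03 and 6.87 (0.64, or 0.04), and TGFB2 1.35 and 2.64 (0.63, or -0.26 with the trends subtracted). Of the 74 measured genes of the 6 lists 0 were at least 2-fold lower, and 0.444% of all genes were.

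**Figure D5:**
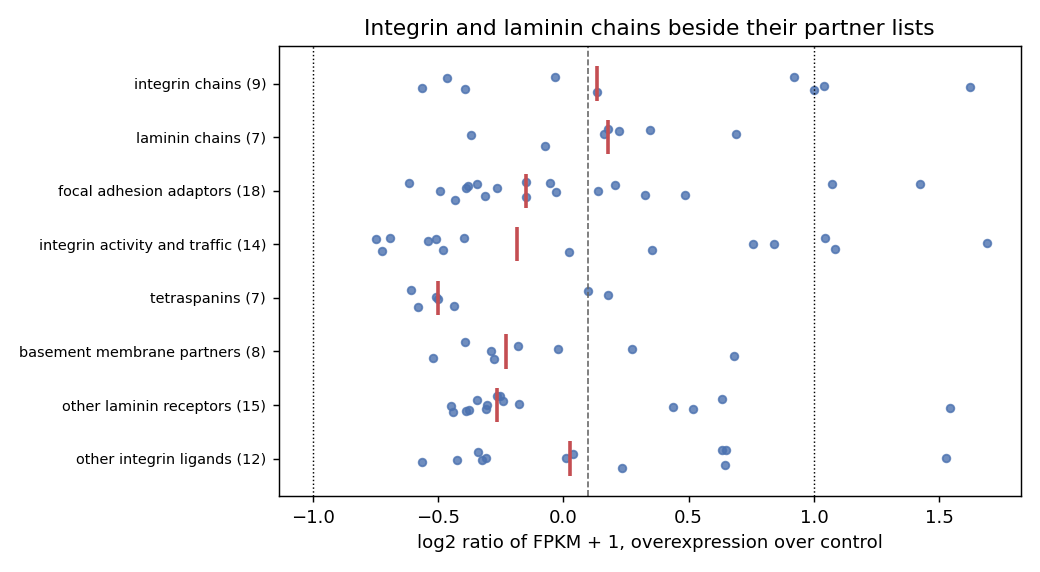
log2 ratio of FPKM + 1, overexpression over control (horizontal axis), for each measured gene (points) of the integrin and laminin chains and of 6 lists of their partners, with the number of genes in brackets; red bars are medians, the dashed line is the median of all genes (0.10) and dotted lines mark 2-fold. The tetraspanins have the lowest median, -0.50, and 0 points lie past 2-fold on the lower side.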

How the data were processed

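Poly(A)-selected RNA of 1 control and 1 LINC01133 library was sequenced, per the labels' protocols. Per the submitters' processing notes, the build was GRCh38 and the tools were HTSeq 0.6.0, HISAT2 2.1.0 and Bowtie2 2.2.3; the role of each tool, the annotation and the strand setting are not given in the sources used here, so overlapping and antisense genes are uncertain. The labels do not name the unit of the values. The values that the authors deposited, 1 per gene, were read as FPKM, because value times merged exon length (GENCODE 29) gave whole multiples of 1 step per library, within 0.02 of a fragment, for 94.5% and 94.4% of 28109 genes with a length. The steps gave the depths and fragments. Of the 38 chains, 34 were whole in both libraries.

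Symbols were matched to Ensembl identifiers by GENCODE 29. Ratios were formed as log2(FPKM + 1) differences, which understates low genes, and counts are over genes whose mean FPKM reached 1. Intervals are exact 95% Poisson intervals for levels, Clopper-Pearson intervals of the conditional share for ratios and conditional odds-ratio intervals for quotients of 2 chains. Because amplified fragments are not independent molecules, these intervals hold counting error alone. Trends were fitted by lowess (span 0.3) on GC content and then log length of 1 coding transcript per gene (the longest having a 3′ UTR; statsmodels 0.14.6, scipy 1.17.1, Python 3.11.15), and the overall median was kept. Depth recovery, intervals and trend subtraction were tested on simulated Poisson counts with a straight trend on GC content and none on length. The intervals assume the same Poisson counts, so their coverage there is no check on these libraries. Named were all chains, LINC01133, and of each partner list the 4 measured genes whose log2 ratio was farthest from 0 and any past 2-fold; EPCAM, CDH1, MUC1, CLDN4, POSTN and FAP as markers and the genes at 0 were named after their values were seen. The members and lists were chosen with earlier results of these data known. Of the chains 1, and of the partner genes 1, are not reported here by name. Other scalings, pseudocounts, filters and thresholds were tried.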

Additional observations from a re-analysis of the deposited data

How the results depend on the processing

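No paired analysis was possible because 1 library per condition leaves no pairs. Scaling moved the median log2 ratio of all genes past the main filter from 0.10 to -0.06 by the median of ratios, -0.07 by the trimmed mean of M values and -0.23 by the upper quartile. The 3 chains at least 2-fold higher became 1 by each of these scalings, 0 with both trends or the GC content trend alone subtracted, and 5 at 1.5-fold, where 26.8% of all genes were higher. Where the counting interval had to leave out 1, 7 of 13 chains were higher and 3 lower, in place of 0, beside 42.6% and 32.2% of all genes with an interval. The integrin median of 0.13 became -0.12 by the upper quartile, -0.00056 with no filter and 1.0004 at a mean FPKM of at least 5. At that last filter 5 integrin chains remained, the median is the value of ITGB1, and the median of all genes was -0.10. The laminin median of 0.18 became 0.0251 by the median of ratios, 0.0164 by the trimmed mean of M values, -0.20 by the upper quartile, 0.0185 with no filter and 0.29 with the GC content trend alone subtracted. Of the 16 chains past the filter, 9 kept the sign of their log2 ratio under every setting that gave them a value, and ITGA3, ITGA7, ITGAE, LAMA5, LAMB1, LAMB2 and LAMC1 did not. LAMA1 had no value by the upper quartile, which took it under the filter. The cause of these moves was not tested. Under the filter, depth left intervals wide, as for ITGA2 with 7 and 25 fragments.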

Other observations

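Genes named after integrin and laminin chains, chosen after the values were seen, were read as well. LAMC1-AS1, an antisense RNA on chromosome 1 (183138402 to 183141282, minus strand) annotated within the span of LAMC1, had 0 control fragments and 15 with LINC01133, an FPKM of 0 and 1.92. It shares 0% of its exon bases with exons of another gene, but reads from introns of LAMC1 cannot be told apart from it if strand was not used in counting. ITGB2-AS1 had 0 and 2 fragments, LAMA5-AS1 2 and 2, ITGA9-AS1 13 and 18, and the divergent transcript ITGB1-DT 0 and 0. ITGB1BP1 binds the tail of ITGB1 and holds the receptor inactive. It had an FPKM of 6.38 and 6.51, and 33.1% of its exon bases overlap exons of other genes on either strand. Its log2 ratio was 0.02 as deposited and -0.49 without the trends, while ITGB1 itself was at 1.0004 and 0.24.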
